A study of Mus musculus with 12 samples.

Results

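The genes described here encode semaphorins, plexins, neuropilins, ephrins and Eph receptors, the families of guidance ligands and receptors that steer growing axons and migrating neurons. They were taken by their gene symbols: *Sema3* to *Sema7*, *Plxn*, *Nrp*, *Efna*, *Efnb*, *Epha* and *Ephb*. Of 14860 genes measured, 46 belong to these families: 6 secreted class 3 semaphorins, 12 other semaphorins, 9 plexins and neuropilins (8 plexins and *Nrp1*), 9 EphA receptors, 3 EphB receptors and 7 ephrins. Neocortical RNA of mouse embryos at E14.5 (days after conception) was hybridized to Affymetrix Mouse Exon 1.0 ST arrays, with 1 embryo per array. Of the 12 arrays, 3 were from *Tbr1/2* dKO, 2 from *Tbr2* cKO, 4 from *Tbr1* KO and 3 from controls. *Tbr1* KO embryos were *Tbr1*-/-, *Tbr2* cKO embryos carried floxed *Tbr2* alleles (2F/2F) recombined by *Nes11Cre*, in which a *Nestin* promoter drives Cre in neural progenitors, and *Tbr1/2* dKO embryos carried all of these (*Tbr1*-/-;*Tbr2* 2F/2F;*Nes11Cre*). Controls had wild type *Tbr1* and unrecombined *Tbr2*. These numbers follow the sample labels, although the design text states 4 arrays per genotype.

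Class 3 semaphorins are secreted and act through neuropilins, which bind the ligand, and plexins, which span the membrane and pass the signal to the cytoskeleton. Most other semaphorins are anchored in the membrane and bind plexins directly. Ephrins are also held at the cell surface, and they bind Eph receptor tyrosine kinases on a neighbouring cell, so that contact is turned into repulsion or adhesion. In the embryonic neocortex these families guide corticofugal, callosal and thalamic axons, and graded EphA receptors and ephrin-A ligands help to set the map of cortical areas. Tbr2 (gene symbol *Eomes*) is a T-box transcription factor of intermediate progenitors, and Tbr1 is the related factor that marks early projection neurons.

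All values are log2 intensities after RMA normalization, so a difference of 1 is a doubling, and the level of 1 gene cannot be set against that of another. A log2 fold change (log2FC) is the mean of the mutant arrays minus the mean of the controls, unless another genotype is named. Calls of a gene rest on limma, with 1 model for the 4 genotypes and a threshold of 0.05 on the p adjusted by Benjamini and Hochberg over the 14860 genes. In neocortex tissue, fewer cells of a type and less RNA per cell cannot be told apart. *Tbr1* read 9.52 to 9.69 in *Tbr1/2* dKO, 10.39 and 10.57 in *Tbr2* cKO and 9.76 to 10.06 in *Tbr1* KO, against 10.88 to 11.01 in controls. *Eomes* read 8.37 to 8.65 in *Tbr1/2* dKO, 8.20 and 9.19 in *Tbr2* cKO and 11.56 to 12.14 in *Tbr1* KO, against 11.70 to 12.13 in controls. The sources do not say if the 2 probesets cover deleted sequence. The mean of 8 radial glial markers, all measured, was 11.89 to 11.93 in *Tbr1/2* dKO, 11.87 and 11.88 in *Tbr2* cKO and 11.73 to 11.92 in *Tbr1* KO, against 11.75 to 11.84 in controls. All 5 arrays with recombined *Tbr2* were above all controls, and so were *Tbr1* KO replicates 3 and 4 (11.86 and 11.92). Of the 8 markers, 0 were called in any mutant. The mean of 7 intermediate progenitor markers, which include *Eomes* itself, was 10.86 to 10.92, 10.86 to 10.87 and 10.92 to 11.12 in these mutants, against 10.99 to 11.13 in controls. Of these 7, 3 were called higher in *Tbr1/2* dKO and only *Eomes* lower. In *Tbr2* cKO 0 were called higher and only *Eomes* lower, so the mean does not stand for the list. The 4 measured of 8 cortical neuron markers (*Neurod2*, *Neurod6*, *Slc17a6* and *Bcl11a*) had means of 11.70, 11.85 and 11.97 in *Tbr1/2* dKO, 11.96 and 12.02 in *Tbr2* cKO and 11.94 to 12.10 in *Tbr1* KO, against 12.03 to 12.06 in controls. The mean of 14 meningeal genes was 8.49 in *Tbr1/2* dKO replicate 1 and 8.45 in *Tbr2* cKO replicate 1, against 7.41 to 7.77 in the other 10 arrays. That of 14 choroid plexus and hem genes was 8.81 in *Tbr2* cKO replicate 1 and 7.79 in replicate 2, against 7.31 to 8.08 in controls. It was 7.51 to 8.15 in *Tbr1/2* dKO and 7.58 to 8.37 in *Tbr1* KO. The mean of 4 measured blood genes was 9.90 and 9.93 in *Tbr2* cKO, against 9.67 to 9.79 in controls. It was 9.76 to 10.11 in *Tbr1/2* dKO and 9.52 to 9.80 in *Tbr1* KO. Neither mean was a covariate in any fit.

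In *Tbr1/2* dKO, 9 of the 46 guidance genes were called (19.6%), against 3.11% of all genes measured. Of the 46, 3 were higher (*Plxnb2*, *Epha6* and *Efna5*) and 6 lower (*Plxna4*, *Plxnd1*, *Sema3c*, *Epha3*, *Epha5* and *Epha7*) in *Tbr1/2* dKO, where 1.20% of all genes were called higher and 1.90% lower. By group, the calls comprised 3 of 9 plexins and neuropilins, 1 of 6 class 3 semaphorins, 0 of 12 other semaphorins, 4 of 9 EphA receptors, 0 of 3 EphB receptors and 1 of 7 ephrins. *Tbr2* cKO lowered 2 of 46 (*Plxna4* and *Epha3*) and raised 0, against 0.404% of all genes called lower, 0.249% called higher and 0.653% called in all. *Tbr1* KO changed 3 of 46, with *Plxna4* and *Plxnd1* lower and *Efna5* higher, against 0.404%, 0.215% and 0.619% of all genes called lower, higher and in all. The 3 comparisons share the control arrays. At an unadjusted p under 0.05 the counts of the 46 were 20, 8 and 9, against 12.3%, 10.0% and 6.51% of all genes. The count of 9 in *Tbr1/2* dKO fell to 4 without control replicate 2, and to 5 without *Tbr1/2* dKO replicate 3, control replicate 1 or control replicate 3. The count in *Tbr2* cKO was 1 without either *Tbr2* cKO array, and that in *Tbr1* KO was 1 without *Tbr1* KO replicate 1, *Tbr1* KO replicate 4 or control replicate 2.

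**Figure D1:**
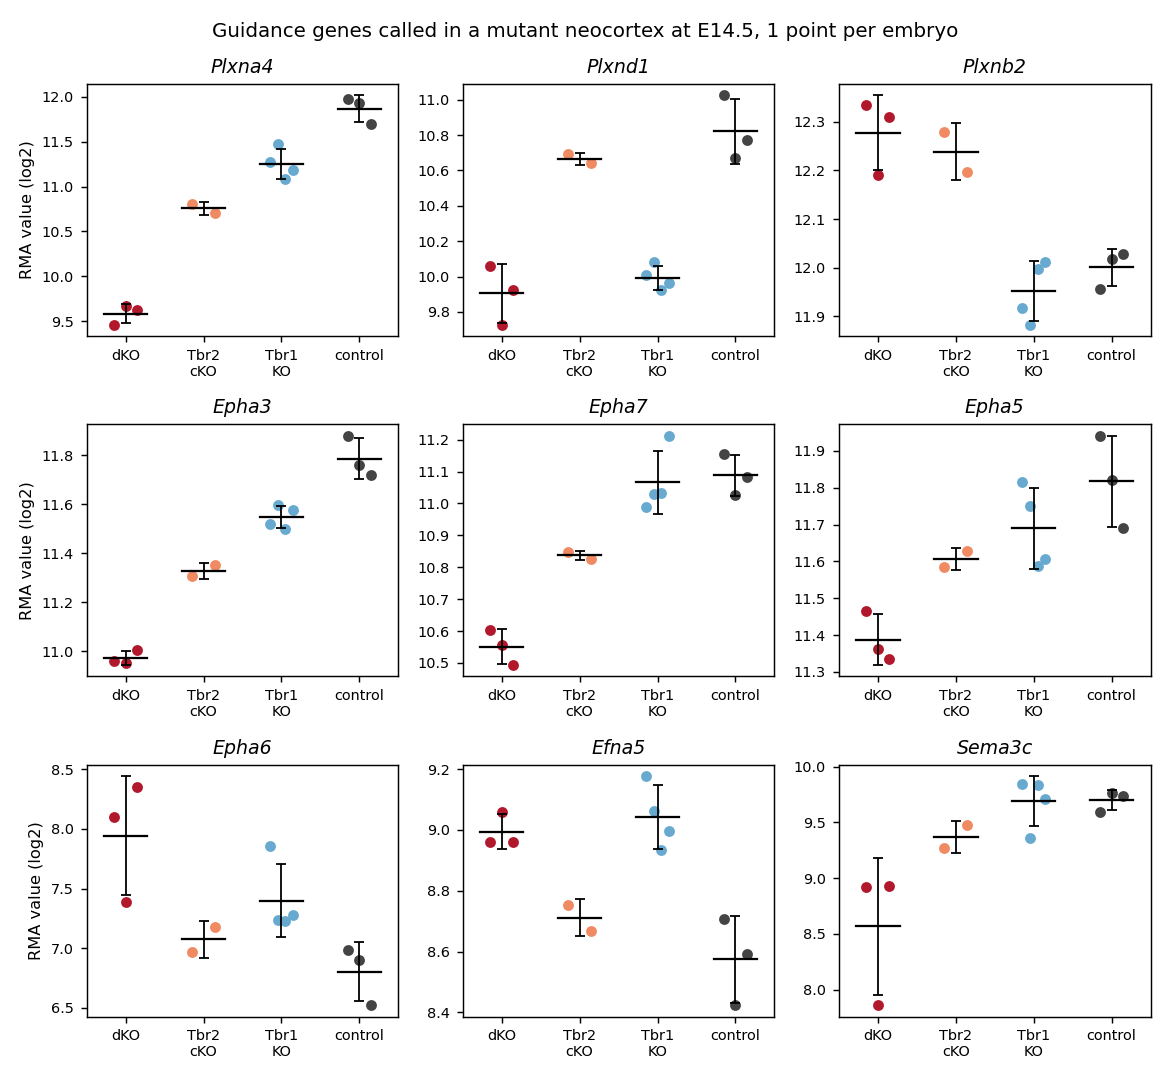
Log2 RMA values (y axis, a separate scale for each gene) of the 9 guidance genes called in a mutant, by genotype (x axis: *Tbr1/2* dKO, *Tbr2* cKO, *Tbr1* KO, control), with each point 1 embryo, long bars means and whiskers SD (n = 3, 2, 4 and 3). *Plxna4* and *Epha3* fall into 4 separate levels, lowest in *Tbr1/2* dKO (means of 9.58 and 10.97) and highest in controls (11.87 and 11.79), whereas for *Plxnd1* both genotypes that lack *Tbr1* lie apart from the other two.

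Among the receptors of semaphorins, *Plxna4* (probeset 6952523) changed most. It encodes a class A plexin that binds class 6 semaphorins directly and class 3 semaphorins together with neuropilins. Its values were 9.46, 9.67 and 9.62 in *Tbr1/2* dKO, 10.81 and 10.71 in *Tbr2* cKO, and 11.28, 11.48, 11.09 and 11.18 in *Tbr1* KO, against 11.97, 11.94 and 11.70 in controls. No array of a genotype overlapped with those of another, and each mutant was below all controls. *Plxna4* fell by 2.28 ± 0.11 in *Tbr1/2* dKO (log2FC ± SE; 4.87-fold lower, limma adjusted p = 1.31e-06), it fell by 1.11 ± 0.12 in *Tbr2* cKO (2.16-fold, adjusted p = 0.00125), and it fell by 0.61 ± 0.10 in *Tbr1* KO (1.53-fold, adjusted p = 0.0189). The first 2 calls held in all 25 alternative analyses, whereas that in *Tbr1* KO was lost without *Tbr1* KO replicate 1, 3 or 4 or control replicate 1 or 2 (log2FC of -0.62 to -0.56, adjusted p of 0.0525 to 0.123). The double mutant was also below each single mutant, with differences of -1.67 from *Tbr1* KO (adjusted p = 1.97e-05) and -1.17 from *Tbr2* cKO (adjusted p = 0.00459). The call against *Tbr2* cKO was lost with both arrays of high meningeal genes left out (-1.06, adjusted p = 0.103) or with only these 2 genotypes fitted (-1.17, adjusted p = 0.335).

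*Plxnd1* (probeset 6956748), the receptor of Sema3e and a regulator of vessel patterning, had another order. Its values were 10.06, 9.73 and 9.92 in *Tbr1/2* dKO, 10.69 and 10.64 in *Tbr2* cKO and 10.01, 10.08, 9.92 and 9.96 in *Tbr1* KO, against 11.03, 10.67 and 10.77 in controls. The 7 arrays without *Tbr1* were all below the 5 arrays with it, *Tbr1/2* dKO overlapped with *Tbr1* KO, and *Tbr2* cKO overlapped with controls. *Plxnd1* fell by 0.92 ± 0.10 in *Tbr1/2* dKO (1.89-fold, limma adjusted p = 0.000533) and by 0.83 ± 0.09 in *Tbr1* KO (1.78-fold, adjusted p = 0.00184), and both calls held in all 25 alternatives. The log2FC in *Tbr2* cKO was -0.16 (95% interval of -0.41 to 0.09, adjusted p = 0.737), and that of *Tbr1/2* dKO over *Tbr1* KO was -0.09 (-0.30 to 0.12, adjusted p = 0.796). *Tbr2* cKO was higher than *Tbr1* KO by 0.67 ± 0.11 (adjusted p = 0.0216), a call lost without *Tbr2* cKO replicate 1 or 2 or *Tbr1* KO replicate 3 or 4 (log2FC of 0.65 to 0.70, adjusted p of 0.0609 to 0.221). *Tbr1/2* dKO was below *Tbr2* cKO by 0.76 (adjusted p = 0.034), and this call was lost without any 1 of 9 arrays: *Tbr1/2* dKO replicates 2 and 3, both *Tbr2* cKO, all *Tbr1* KO and control replicate 3 (log2FC of -0.79 to -0.67, adjusted p of 0.0634 to 0.348). Both of these calls were also lost with the meningeal mean as a covariate (log2FC of 0.63 and -0.75, adjusted p = 0.0569 and 0.0566). That of *Tbr1/2* dKO against *Tbr2* cKO was lost with the cortical neuron or radial glia mean (-0.63 and -0.73, adjusted p = 0.142 and 0.0726). The means of 12 endothelial and pericyte markers were 8.62 to 9.06 in *Tbr1/2* dKO, 8.75 and 8.99 in *Tbr2* cKO and 8.63 to 8.72 in *Tbr1* KO, against 8.73 to 8.78 in controls, and 0 of the 12 were called in any mutant. Their part in the *Plxnd1* result was not tested.

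*Plxnb2* (probeset 6837787), a class B plexin of neuronal progenitors and a receptor for class 4 semaphorins, was higher in *Tbr1/2* dKO. It read 12.33, 12.19 and 12.31 in *Tbr1/2* dKO, 12.28 and 12.20 in *Tbr2* cKO and 11.88 to 12.01 in *Tbr1* KO, against 11.96, 12.02 and 12.03 in controls. All 5 arrays with recombined *Tbr2* were above the other 7. *Plxnb2* rose by 0.28 ± 0.06 in *Tbr1/2* dKO (1.21-fold, limma adjusted p = 0.0313), and the log2FC in *Tbr2* cKO was 0.24 ± 0.07 (adjusted p = 0.212, unadjusted p = 0.00474). *Tbr1/2* dKO was also above *Tbr1* KO, by 0.33 ± 0.06 (adjusted p = 0.021). With the meningeal mean as a covariate the log2FC in *Tbr1/2* dKO was 0.23 (adjusted p = 0.143), with the radial glia mean 0.21 (adjusted p = 0.281) and with the cortical neuron mean 0.29 (adjusted p = 0.215). The last 2 also ended the call against *Tbr1* KO (0.27 and 0.34, adjusted p = 0.0963 and 0.123), as did the replicate number as a block (0.35, adjusted p = 0.0593). The call against controls was lost without *Tbr1/2* dKO replicate 1 or 3 or any 1 control (log2FC of 0.25 to 0.29, adjusted p of 0.0668 to 0.136), and that against *Tbr1* KO without *Tbr1/2* dKO replicate 1 or 3 or *Tbr1* KO replicate 1 or 2 (0.30 to 0.31, adjusted p of 0.0616 to 0.0841).

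The other 6 receptors of this group were not called. *Nrp1*, the co-receptor that binds Sema3a, read 11.93, 11.43 and 11.80 in *Tbr1/2* dKO, 11.69 and 11.73 in *Tbr2* cKO and 11.54, 11.43, 11.51 and 11.15 in *Tbr1* KO, against 11.19, 11.47 and 11.23 in controls. Its log2FC was 0.42 ± 0.14 in *Tbr1/2* dKO (limma adjusted p = 0.179) and 0.41 ± 0.15 in *Tbr2* cKO (adjusted p = 0.382). *Tbr1/2* dKO replicate 2 stood below the other 2 arrays of its genotype, and without it the log2FC of *Nrp1* was 0.57 (adjusted p = 0.0372). With the cortical neuron mean as a covariate *Nrp1* was also called in *Tbr1/2* dKO (0.78, adjusted p = 0.0214). *Plxnc1*, the receptor of Sema7a, had a log2FC of 0.43 ± 0.15 in *Tbr1/2* dKO and 0.35 ± 0.17 in *Tbr2* cKO (adjusted p = 0.229 and 0.541), with all 5 arrays of these genotypes above all controls. In *Tbr1/2* dKO the class A plexins *Plxna1* and *Plxna2* had log2FC values of 0.25 ± 0.08 and -0.30 ± 0.10 (adjusted p = 0.158 and 0.21), and *Plxnb1*, the receptor of Sema4d, one of 0.17 ± 0.06 (adjusted p = 0.24). *Plxna3* had a log2FC of -0.03 to 0.05 in the 3 mutants, with 95% intervals that span -0.29 to 0.34. Of the class A plexins, *Plxna4* was the only one called in any of the comparisons, and the difference between it and the other 3 was not tested.

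Among the semaphorins, only *Sema3c* of 18 was called, where 3.11% of all genes were called in *Tbr1/2* dKO. A count this small does not set semaphorins apart from all genes. *Sema3c* (probeset 6928965) encodes a secreted attractant of callosal axons. It read 8.92, 7.86 and 8.93 in *Tbr1/2* dKO, 9.27 and 9.47 in *Tbr2* cKO and 9.85, 9.36, 9.84 and 9.72 in *Tbr1* KO, against 9.59, 9.77 and 9.74 in controls. All *Tbr1/2* dKO arrays were below all other arrays, and replicate 2 was far below the other 2. *Sema3c* fell by 1.13 ± 0.24 in *Tbr1/2* dKO (2.19-fold, limma adjusted p = 0.0307), and without replicate 2 the log2FC was -0.78 (adjusted p = 0.013). The log2FC was -0.33 in *Tbr2* cKO (95% interval of -0.93 to 0.27) and -0.01 in *Tbr1* KO (-0.51 to 0.49). *Tbr1/2* dKO was below *Tbr1* KO by 1.12 ± 0.23 (adjusted p = 0.0426). The call against controls was lost without any 1 control (log2FC of -1.19 to -1.10, adjusted p of 0.0848 to 0.111), and that against *Tbr1* KO without any 1 of 9 arrays, those of the other 3 genotypes (-1.23 to -1.07, adjusted p of 0.0566 to 0.12). With the cortical neuron mean, which was also lowest in *Tbr1/2* dKO replicate 2 (11.70), as a covariate, the log2FC against controls was -0.62 (adjusted p = 0.575) and that against *Tbr1* KO -0.70 (adjusted p = 0.384). The calls were also lost with the radial glia mean as a covariate (log2FC of -1.14 and -1.13, adjusted p = 0.193 and 0.135). So they were with the meningeal mean (-1.24 and -1.19, adjusted p = 0.0562 and 0.0602). Against *Tbr1* KO the log2FC was -1.11 with the replicate block (adjusted p = 0.113). It was -1.09 with the mean of Y-linked genes as a covariate (adjusted p = 0.0515). The cortical neuron and radial glia covariates were chosen once the data were known.

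Of the other class 3 semaphorins, *Sema3e*, the ligand of plexin D1, read 7.50, 7.26 and 7.19 in *Tbr1/2* dKO and 7.24 and 7.44 in *Tbr2* cKO, against 6.80, 6.95 and 6.86 in controls. These 5 arrays were above all controls, with log2FC values of 0.44 ± 0.14 and 0.47 ± 0.15 that were not called (limma adjusted p = 0.152 and 0.303), and the log2FC in *Tbr1* KO was 0.01 ± 0.13. With the radial glia mean as a covariate *Sema3e* was called in *Tbr1/2* dKO (0.77, adjusted p = 0.0172) and *Tbr2* cKO (0.69, adjusted p = 0.0387). With the cortical neuron mean it was called in *Tbr1/2* dKO (0.78, adjusted p = 0.0284). *Sema3f*, the ligand of neuropilin-2, read 9.38, 9.09 and 9.08 in *Tbr1/2* dKO and 9.27, 9.33, 8.91 and 9.08 in *Tbr1* KO, against 9.53, 9.55 and 9.39 in controls. Its log2FC was -0.31 ± 0.12 in *Tbr1/2* dKO and -0.34 ± 0.11 in *Tbr1* KO (adjusted p = 0.268 and 0.415), with all arrays of both genotypes below all controls. *Sema3a*, a repellent of cortical axons, had a log2FC of -0.28 ± 0.12 in *Tbr1/2* dKO (adjusted p = 0.359). *Sema3b* and *Sema3d* had log2FC values of -0.08 to 0.14 in the 3 mutants.

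The 12 membrane-bound semaphorins gave no call, where 3.11%, 0.653% and 0.619% of all genes were called in *Tbr1/2* dKO, *Tbr2* cKO and *Tbr1* KO. With so few genes, the absence of calls does not set this group apart from all genes. Closest to the threshold was *Sema4d*, the ligand of plexin B1, with 10.13, 9.58 and 9.89 in *Tbr1/2* dKO and 10.04 and 10.11 in *Tbr2* cKO, against 10.33, 10.43 and 10.28 in controls. Its log2FC in *Tbr1/2* dKO was -0.48 ± 0.12 (limma adjusted p = 0.0649), and it was called without *Tbr1/2* dKO replicate 1 (log2FC of -0.61, adjusted p = 0.0142). *Sema4d* was also called among genes above the median level (adjusted p = 0.0347) and with a trended robust prior (0.0432). With both arrays of high meningeal genes left out the log2FC was -0.61. *Sema4g* had a log2FC of -0.35 ± 0.12 in *Tbr1/2* dKO (adjusted p = 0.216) and -0.27 ± 0.11 in *Tbr1* KO (adjusted p = 0.69). *Sema5a*, a transmembrane semaphorin with thrombospondin repeats, differed in sign between the single mutants: its log2FC was 0.28 ± 0.12 in *Tbr2* cKO and -0.24 ± 0.10 in *Tbr1* KO (adjusted p = 0.456 and 0.702). Directly compared, *Tbr2* cKO was above *Tbr1* KO by 0.52 ± 0.11, with an adjusted p of 0.0847. The other 9 had log2FC values of -0.24 to 0.24. *Sema7a* and *Sema6d* were lowest in *Tbr1/2* dKO replicate 2, with 9.99 for *Sema7a* against 10.85 and 10.68 in the other arrays of that genotype and 10.58 to 10.71 in controls. Over the 46 genes, replicate 2 was the lowest of the 3 *Tbr1/2* dKO arrays for 23, replicate 1 for 10 and replicate 3 for 13.

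**Figure D2:**
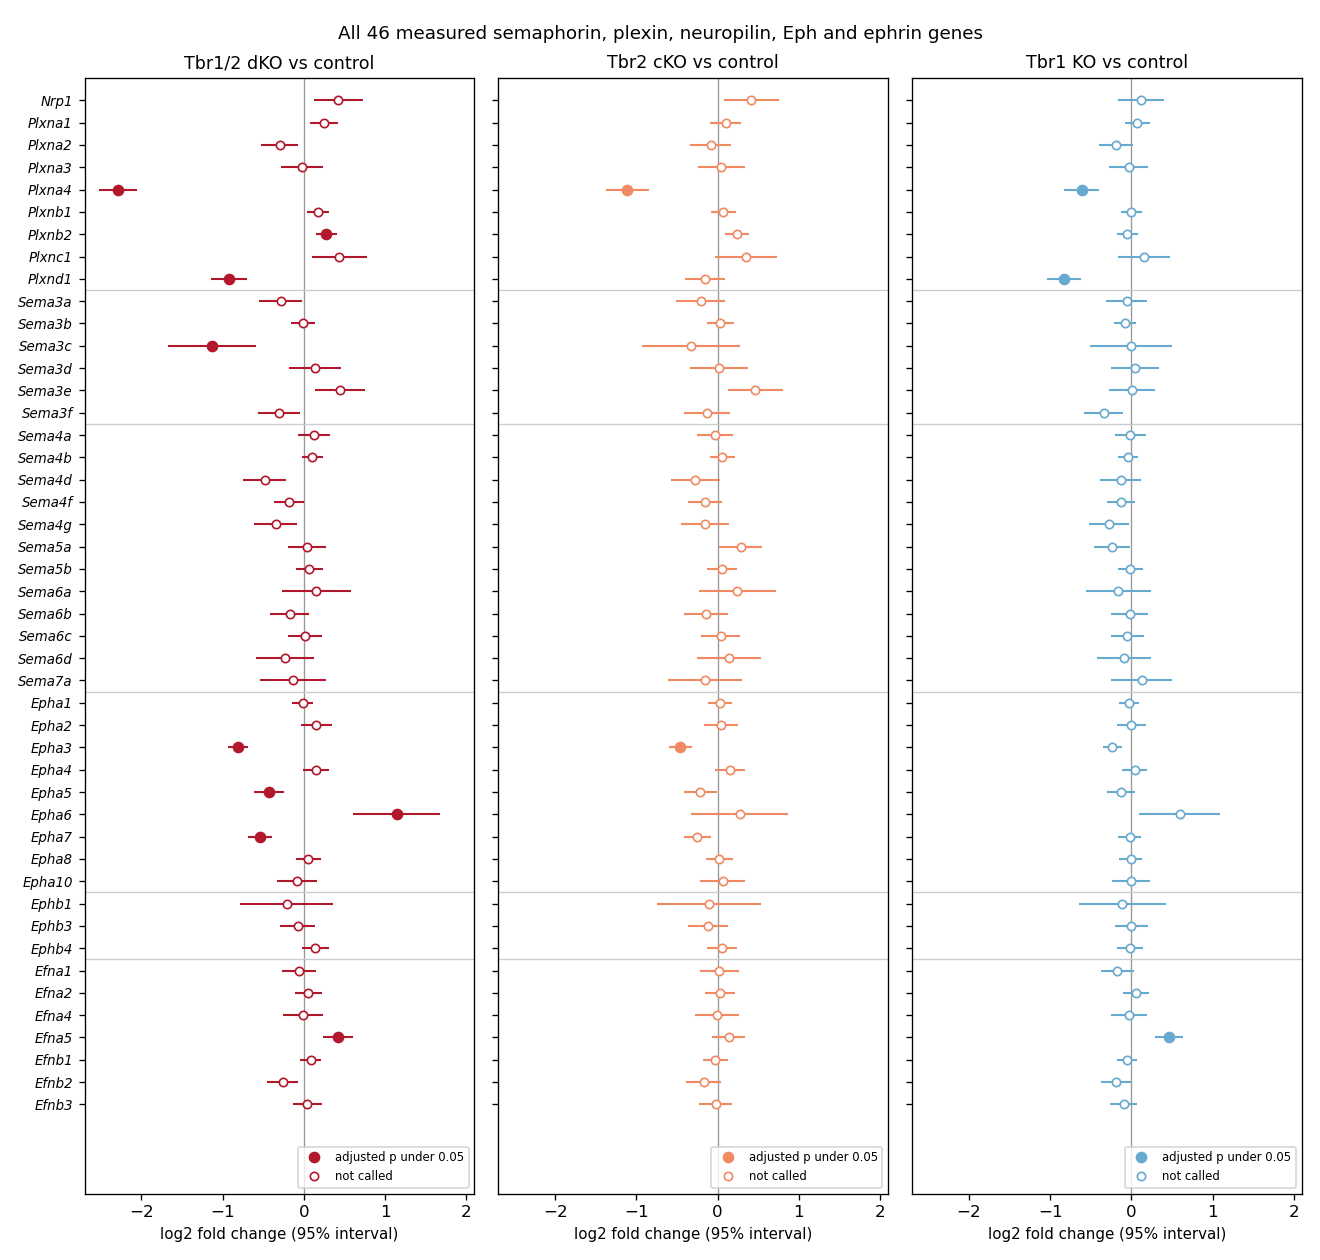
Log2 fold change against controls (x axis) of the 46 guidance genes (y axis, in 6 groups from plexins and *Nrp1* to ephrins) in *Tbr1/2* dKO, *Tbr2* cKO and *Tbr1* KO, with estimates as points, filled where the adjusted p was under 0.05, and 95% intervals of the limma fit as lines. Of the 14 filled points, 9 are in *Tbr1/2* dKO, 2 in *Tbr2* cKO and 3 in *Tbr1* KO, and the leftmost is *Plxna4* in *Tbr1/2* dKO at -2.28.

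Of the Eph receptors, 4 of 9 EphA genes were called in *Tbr1/2* dKO, with 3 lower and 1 higher. *Epha3* (probeset 6846670), a receptor of ephrin-A ligands that has a high affinity for ephrin-A5, read 10.96, 10.95 and 11.01 in *Tbr1/2* dKO, 11.31 and 11.35 in *Tbr2* cKO and 11.52, 11.60, 11.50 and 11.58 in *Tbr1* KO, against 11.88, 11.76 and 11.72 in controls. As with *Plxna4*, no array of a genotype overlapped with those of another, and the order was the same. *Epha3* had the smallest residual SD of the 46 genes, 0.054, where the median was 0.127. It fell by 0.81 ± 0.06 in *Tbr1/2* dKO (1.76-fold, limma adjusted p = 1.84e-05) and by 0.46 ± 0.06 in *Tbr2* cKO (1.37-fold, adjusted p = 0.00795). In *Tbr1* KO the log2FC was -0.24 ± 0.05 (adjusted p = 0.112). *Epha3* was called in *Tbr1* KO among genes above the median level (adjusted p = 0.047), with a trended robust prior (0.04) and with array weights (-0.27, adjusted p = 0.0242). The call in *Tbr1/2* dKO held in all 25 alternatives, and so did that against *Tbr1* KO (-0.57 ± 0.05, adjusted p = 0.000353). The call in *Tbr2* cKO was lost without *Tbr2* cKO replicate 1 (log2FC of -0.44, adjusted p = 0.14) or replicate 2 (-0.48, adjusted p = 0.0589), with the meningeal mean as a covariate (-0.43, adjusted p = 0.0524), and with both arrays of high meningeal genes left out, of which *Tbr2* cKO replicate 1 is one (-0.44, adjusted p = 0.22).

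*Epha7* (probeset 6912371), an ephrin-A receptor of cortical progenitors and a marker of developing areas, read 10.60, 10.56 and 10.49 in *Tbr1/2* dKO, 10.85 and 10.83 in *Tbr2* cKO and 10.99, 11.03, 11.03 and 11.21 in *Tbr1* KO, against 11.16, 11.03 and 11.08 in controls. *Tbr1* KO overlapped with controls, and the other genotypes were each apart. *Epha7* fell by 0.54 ± 0.07 in *Tbr1/2* dKO (1.45-fold, limma adjusted p = 0.00116), and was below *Tbr1* KO by 0.52 ± 0.06 (adjusted p = 0.00273). Both calls held in all 25 alternatives. The log2FC was -0.25 ± 0.08 in *Tbr2* cKO (adjusted p = 0.25) and -0.02 in *Tbr1* KO (95% interval of -0.16 to 0.12).

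*Epha5* (probeset 6939604), a further ephrin-A receptor of cortical neurons, read 11.47, 11.36 and 11.34 in *Tbr1/2* dKO, 11.58 and 11.63 in *Tbr2* cKO and 11.82, 11.75, 11.59 and 11.61 in *Tbr1* KO, against 11.94, 11.82 and 11.69 in controls. *Tbr1/2* dKO was below all other arrays. *Epha5* fell by 0.43 ± 0.08 in *Tbr1/2* dKO (1.35-fold, limma adjusted p = 0.015), with log2FC values of -0.21 ± 0.09 in *Tbr2* cKO and -0.13 ± 0.08 in *Tbr1* KO that were not called. The call was lost without *Tbr1/2* dKO replicate 3 or control replicate 1 or 2 (log2FC of -0.43 to -0.37, adjusted p of 0.0572 to 0.0734). With the cortical neuron mean as a covariate its log2FC was -0.28 (adjusted p = 0.352), with the radial glia mean -0.25 (adjusted p = 0.19) and with the meningeal mean -0.43 (adjusted p = 0.0577).

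*Epha6* (probeset 6846576), an ephrin-A receptor like the others, moved the other way. It read 8.10, 7.38 and 8.35 in *Tbr1/2* dKO, 6.97 and 7.18 in *Tbr2* cKO and 7.86, 7.24, 7.23 and 7.28 in *Tbr1* KO, against 6.98, 6.90 and 6.52 in controls. All 7 arrays without *Tbr1* were above the other 5. The signal was low: only the 8.35 exceeded the array medians over all probesets (8.15 to 8.25). *Epha6* was not among the genes above the median level. *Epha6* rose by 1.14 ± 0.24 in *Tbr1/2* dKO (2.21-fold, limma adjusted p = 0.0282), with a log2FC of 0.60 ± 0.23 in *Tbr1* KO (adjusted p = 0.6) and 0.27 ± 0.27 in *Tbr2* cKO (adjusted p = 0.83). The call was lost without *Tbr1/2* dKO replicate 1 or 3 or any 1 control (log2FC of 0.94 to 1.23, adjusted p of 0.0627 to 0.11), and without *Tbr1/2* dKO replicate 2 the log2FC was 1.42 (adjusted p = 0.00388). The call was also lost with the meningeal mean as a covariate (1.16, adjusted p = 0.0842) or with both arrays of high meningeal genes left out (1.06, adjusted p = 0.127). With the cortical neuron mean as a covariate the log2FC was 1.73 (adjusted p = 0.0108). The 5 uncalled EphA genes had log2FC values of -0.08 to 0.16. They include *Epha4*, which binds ligands of both ephrin classes and had a log2FC of 0.15 in *Tbr1/2* dKO (95% interval of -0.02 to 0.31). The 3 EphB receptors, which bind transmembrane ephrin-B ligands, had log2FC values of -0.21 to 0.14, and *Ephb1* had the widest spread of the 46 genes (residual SD of 0.366).

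Among the ephrins, *Efna5* (probeset 6856480) was called in *Tbr1/2* dKO and *Tbr1* KO. It encodes ephrin-A5, a lipid-anchored ligand that is graded across the cortex and binds several EphA receptors. It read 8.96, 9.06 and 8.96 in *Tbr1/2* dKO, 8.75 and 8.67 in *Tbr2* cKO and 8.93 to 9.18 in *Tbr1* KO, against 8.71, 8.42 and 8.59 in controls. The 7 arrays without *Tbr1* were above the other 5, and *Tbr1/2* dKO overlapped with *Tbr1* KO. *Efna5* rose by 0.42 ± 0.08 in *Tbr1/2* dKO (1.34-fold, limma adjusted p = 0.0202) and by 0.47 ± 0.08 in *Tbr1* KO (1.38-fold, adjusted p = 0.0217), and its log2FC in *Tbr2* cKO was 0.14 (95% interval of -0.07 to 0.34). The call in *Tbr1/2* dKO was lost without control replicate 2 or 3 or *Tbr1/2* dKO replicate 2 or 3 (log2FC of 0.34 to 0.44, adjusted p of 0.0523 to 0.0767). That in *Tbr1* KO was lost without *Tbr1* KO replicate 1, 2 or 4 or control replicate 2 or 3 (0.39 to 0.48, adjusted p of 0.0514 to 0.0979). In *Tbr1/2* dKO the call was also lost with the meningeal, cortical neuron or radial glia mean as a covariate (log2FC of 0.42, 0.43 and 0.49, adjusted p = 0.0646, 0.184 and 0.0713). In both genotypes it was lost with both arrays of high meningeal genes left out (log2FC of 0.44 and 0.47). *Efnb2*, a transmembrane ephrin, read 11.70, 11.52 and 11.61 in *Tbr1/2* dKO and 11.62 and 11.78 in *Tbr2* cKO, all below the controls (11.95, 11.80 and 11.86), and was not called (log2FC of -0.26 ± 0.09 in *Tbr1/2* dKO, adjusted p = 0.2, and -0.19 ± 0.08 in *Tbr1* KO, adjusted p = 0.731). The other 5 ephrins had log2FC values of -0.17 to 0.08.

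Beyond the calls, 13 of the 46 genes had all *Tbr1/2* dKO arrays below all controls and 8 had them all above, where 8.53% and 8.58% of all genes did so. In *Tbr1* KO 5 were below and 2 above, against 4.02% and 3.47% of all genes, and in *Tbr2* cKO, with 2 arrays, 10 were below and 9 above, against 18.0% and 10.9%. The median log2FC of the 46 genes in *Tbr1/2* dKO was -0.01, against 0.01 for all genes, and the median size of change without its sign was 0.18, against 0.08. In *Tbr2* cKO the median size was 0.13, against 0.08 for all genes, and in *Tbr1* KO 0.07, against 0.06. In *Tbr1* KO 36 of the 46 genes had a negative log2FC and 10 a positive one (21.7%, median of -0.03). Of all genes, 47.5% had a positive one (median of -0.01). A test for any difference among the 4 genotypes called 6 of the 46 (*Plxna4*, *Epha3*, *Plxnd1*, *Epha7*, *Plxnb2* and *Efna5*), against 2.27% of all genes, and gave 16 at an unadjusted p under 0.05, against 12.7%.

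To ask whether the double mutant departs from the single mutants, *Tbr1/2* dKO was compared with each of them. Against *Tbr1* KO, 5 of the 46 genes differed, with *Plxna4*, *Epha3*, *Epha7* and *Sema3c* lower and *Plxnb2* higher, where 1.24% of all genes were called (0.646% lower and 0.599% higher), and 15 had an unadjusted p under 0.05, against 10.9% of all genes. The count was 3 without *Tbr1* KO replicate 1 or 2, and 3 with the replicate number as a block. Against *Tbr2* cKO, *Plxna4* and *Plxnd1* were lower (2 of 46), where 0.108% of all genes were called (0.0808% lower). At an unadjusted p under 0.05 they were 8, against 6.22% of all genes, and the count of calls was 1 without any 1 of the 9 arrays named for *Plxnd1*. Between the single mutants, *Plxnd1* alone differed (1 of 46), higher in *Tbr2* cKO, where 0.585% of all genes were called (0.289% higher). At an unadjusted p under 0.05 they were 8, against 12.5% of all genes, and the count of calls was 0 without *Tbr2* cKO replicate 1 or 2 or *Tbr1* KO replicate 3 or 4.

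Whether the change in *Tbr1/2* dKO exceeded the added changes of *Tbr2* cKO and *Tbr1* KO was tested as 1 term of the same model, in which all 4 genotypes enter. The departure from additivity was called by limma for 0 of the 46 genes, against 0.0269% of all genes, and 3 of the 46 had an unadjusted p under 0.05, against 3.43% of all genes. For *Plxna4* the log2FC in *Tbr1/2* dKO was -2.28 and the sum of the single mutants was -1.72, a departure of -0.56 ± 0.16 (unadjusted p = 0.00413, adjusted p = 0.999). For *Epha7* the values were -0.54 and -0.27 (departure of -0.26 ± 0.10, unadjusted p = 0.0211, adjusted p = 0.999), and for *Sema3c* -1.13 and -0.34 (-0.79 ± 0.36, unadjusted p = 0.0483, adjusted p = 0.999). For the other 6 called genes the 95% interval of the departure included 0, as for *Plxnd1*, with 0.07 (-0.26 to 0.39), and *Epha3*, with -0.12 (-0.30 to 0.07).

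**Figure D3:**
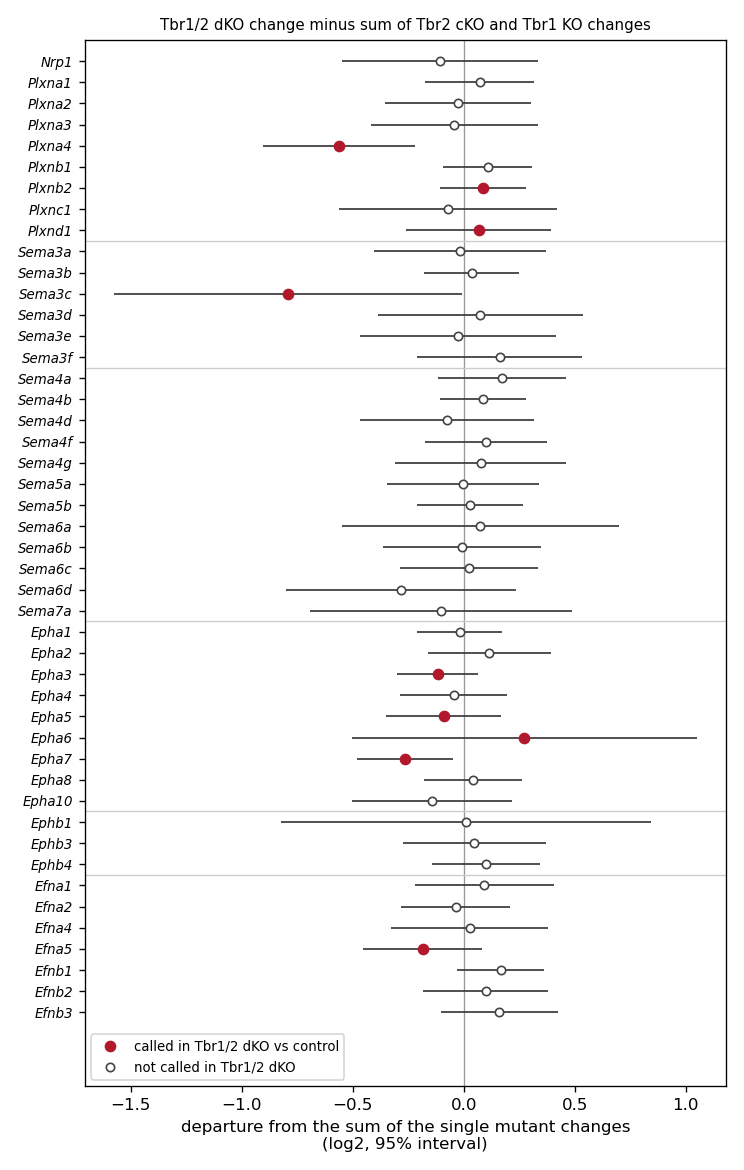
Departure of the *Tbr1/2* dKO log2 change from the sum of the *Tbr2* cKO and *Tbr1* KO changes (x axis, log2) for the 46 guidance genes (y axis, grouped as above). Points are estimates, filled for the 9 genes called in *Tbr1/2* dKO, and lines are 95% intervals, which lie wholly below 0 for *Plxna4*, *Epha7* and *Sema3c* before adjustment.

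Since Tbr1 and Tbr2 are T-box factors, the 250 bases before the annotated start of each gene were searched on both strands for the T-box element AGGTGTGA and its cores GGTGTGA and GGTGTG, in RefSeq promoters of the assembly GRCm38.p6. A promoter was listed for 40 of the 46 genes and for 8 of the 9 called genes, without *Plxna4*. The full element was found in 0 of the 40, where 1.12% of 32851 promoters hold it. The core of 7 letters was found in 2 of the 40 (*Efna1* and *Sema6c*), where 3.333% hold it, and that of 6 letters in 11, where 16.277% hold it. A gene was counted if any of its listed promoters matched, whereas the percentages are of single promoters. The counts and percentages are therefore unlike measures, and no excess or lack can be read from them. Of the 8 called genes, 2 held the shorter core, *Epha5* and *Plxnb2*, and their promoters are shown with the match in capitals (chr5:84417383-84417632 and chr15:89180789-89181038, both on the minus strand, written 5′ to 3′ along the gene). The promoter of *Plxnd1* (chr6:115995006-115995255, minus strand), which was lower in both genotypes without *Tbr1*, is shown because it holds GGCGTGG 4 times, here in capitals. As many copies on either strand occur in 14 promoters (0.043%), and 7.54% hold at least 1. These letters were chosen after the sequence had been read, and a match of letters is not a binding site.
Epha5: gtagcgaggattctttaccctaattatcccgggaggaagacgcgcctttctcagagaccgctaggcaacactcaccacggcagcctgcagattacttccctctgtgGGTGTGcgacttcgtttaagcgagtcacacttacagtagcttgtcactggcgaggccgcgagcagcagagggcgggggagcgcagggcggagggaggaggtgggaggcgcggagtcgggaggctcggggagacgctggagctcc
Plxnb2: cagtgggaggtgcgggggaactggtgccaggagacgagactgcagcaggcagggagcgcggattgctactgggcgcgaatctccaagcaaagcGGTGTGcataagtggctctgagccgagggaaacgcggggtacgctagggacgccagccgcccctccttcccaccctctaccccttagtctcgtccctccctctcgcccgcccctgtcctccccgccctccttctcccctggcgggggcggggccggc
Plxnd1: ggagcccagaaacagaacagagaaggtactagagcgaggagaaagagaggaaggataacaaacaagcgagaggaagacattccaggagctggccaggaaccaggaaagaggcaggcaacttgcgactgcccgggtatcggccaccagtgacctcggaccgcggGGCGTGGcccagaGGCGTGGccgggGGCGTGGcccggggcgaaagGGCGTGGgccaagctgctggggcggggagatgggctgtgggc

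Of 22 measured partners of Eph receptors and ephrins, 5 were called in *Tbr1/2* dKO, 1 in *Tbr2* cKO and 2 in *Tbr1* KO, against the 3.11%, 0.653% and 0.619% of all genes given above. *Vav2* and *Vav3*, whose products bind activated Eph receptors, were higher. *Vav2* read 10.06, 10.07 and 10.10 in *Tbr1/2* dKO, 10.11 and 9.99 in *Tbr2* cKO and 9.58 to 9.78 in *Tbr1* KO, against 9.70, 9.67 and 9.57 in controls. All 5 arrays with recombined *Tbr2* were above the other 7, as for *Plxnb2*. *Vav2* rose by 0.43 ± 0.06 in *Tbr1/2* dKO (1.35-fold, limma adjusted p = 0.00359), a call held in all 25 alternatives, and by 0.40 ± 0.07 in *Tbr2* cKO (1.32-fold, adjusted p = 0.0322). The call in *Tbr2* cKO was lost without any 1 of 9 arrays: *Tbr1/2* dKO replicates 1 and 3, both *Tbr2* cKO, *Tbr1* KO replicates 2 and 3 and the 3 controls (log2FC of 0.34 to 0.46, adjusted p of 0.0501 to 0.361). *Tbr1/2* dKO was above *Tbr1* KO by 0.39 (adjusted p = 0.0101, 0.051 without *Tbr1/2* dKO replicate 3, 0.0593 with the replicate block and 0.0709 with the cortical neuron mean as a covariate). With the meningeal mean as a covariate the calls in *Tbr2* cKO were lost against controls (0.40, adjusted p = 0.127) and against *Tbr1* KO (0.36, adjusted p = 0.0981). The call against *Tbr1* KO was also lost with the mean of Y-linked genes as a covariate (0.36, adjusted p = 0.0635). *Tbr2* cKO was above *Tbr1* KO by 0.36 (adjusted p = 0.0473), a call lost without any 1 of 9 arrays: *Tbr1/2* dKO replicates 1 and 3, both *Tbr2* cKO, *Tbr1* KO replicates 2 to 4 and control replicates 1 and 2 (log2FC of 0.30 to 0.42, adjusted p of 0.0682 to 0.422).

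*Vav3* read 7.94, 7.95 and 7.75 in *Tbr1/2* dKO, 7.57 and 7.59 in *Tbr2* cKO and 8.05, 7.64, 7.54 and 7.42 in *Tbr1* KO, against 6.83, 7.04 and 6.67 in controls, so that every mutant array was above every control. It rose by 1.03 ± 0.15 in *Tbr1/2* dKO (2.05-fold, limma adjusted p = 0.00264) and by 0.82 ± 0.14 in *Tbr1* KO (1.76-fold, adjusted p = 0.0221). Its log2FC in *Tbr2* cKO was 0.73 ± 0.16 (adjusted p = 0.0935). The call in *Tbr1/2* dKO held in all 24 alternatives that gave a value. *Vav3* has a low signal and gave none in the fit of genes above the median level. The call in *Tbr1* KO was lost without *Tbr1* KO replicate 2 or control replicate 1 or 3 (log2FC of 0.73 to 0.82, adjusted p of 0.0602 to 0.123), and *Vav3* was called in *Tbr2* cKO without *Tbr1* KO replicate 1 (adjusted p = 0.0216). It was also called in *Tbr2* cKO with the radial glia mean as a covariate (0.98, adjusted p = 0.0069).

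Lower were *Grip1*, a PDZ scaffold that binds ephrin-B, *Nck2*, an adaptor of Eph signalling, and *Ptpro*, a receptor phosphatase that acts on Eph receptors in the chick. *Grip1* read 9.01, 9.16 and 9.21 in *Tbr1/2* dKO, against 9.70, 9.67 and 9.50 in controls, and fell by 0.50 ± 0.07 (1.41-fold, limma adjusted p = 0.00302; with the radial glia mean as a covariate -0.40, adjusted p = 0.0696). *Nck2* read 11.14, 11.01 and 11.15 in *Tbr1/2* dKO, against 11.42, 11.37 and 11.37 in controls, and fell by 0.29 ± 0.06 (1.22-fold, adjusted p = 0.0267). The *Nck2* call was lost without *Tbr1/2* dKO replicate 2 or any 1 control (log2FC of -0.30 to -0.24, adjusted p of 0.0629 to 0.113), and the log2FC was -0.19 with the cortical neuron mean as a covariate (adjusted p = 0.438), -0.24 with the radial glia mean (adjusted p = 0.232) and -0.27 with the meningeal mean (adjusted p = 0.108). In both single mutants all arrays were below all controls for *Grip1* and *Nck2*, without a call in the main fit. With array weights *Nck2* was called in *Tbr2* cKO (log2FC of -0.31, adjusted p = 0.0242). So was *Grip1* in *Tbr2* cKO (-0.35, adjusted p = 0.0308) and *Tbr1* KO (-0.36, adjusted p = 0.0138). *Ptpro* read 9.67, 9.62 and 9.80 in *Tbr1/2* dKO, 10.06 and 10.05 in *Tbr2* cKO and 9.94, 9.67, 9.70 and 9.48 in *Tbr1* KO, against 10.38, 10.19 and 10.20 in controls. Its 7 values without *Tbr1* were below the other 5, as for *Plxnd1*. *Ptpro* fell by 0.56 ± 0.10 in *Tbr1/2* dKO (1.48-fold, adjusted p = 0.0139) and by 0.56 ± 0.10 in *Tbr1* KO (1.47-fold, adjusted p = 0.0292). In *Tbr1* KO it was not called with the mean of Y-linked genes as a covariate (-0.55, adjusted p = 0.0528). The call in *Tbr1/2* dKO was lost without *Tbr1/2* dKO replicate 2 or control replicate 1 (log2FC of -0.52 and -0.50, adjusted p = 0.0505 and 0.0724), and the log2FC was -0.36 with the radial glia mean as a covariate (adjusted p = 0.211), -0.40 with the cortical neuron mean (adjusted p = 0.33) and -0.53 with the meningeal mean (adjusted p = 0.0617). That in *Tbr1* KO was lost without any 1 of 8 arrays: both *Tbr2* cKO, *Tbr1* KO replicates 2 to 4 and the 3 controls (-0.59 to -0.49, adjusted p of 0.056 to 0.182), and with the meningeal mean as a covariate (-0.55, adjusted p = 0.0678).

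Of 24 measured partners and effectors of semaphorins and plexins, 1 was called, in *Tbr1/2* dKO (4.17%), a share near the 3.11% of all genes. *Chl1*, a cell adhesion molecule of the L1 family that acts with neuropilin-1 in the response to Sema3a, read 11.25, 10.51 and 10.85 in *Tbr1/2* dKO, 11.03 and 11.28 in *Tbr2* cKO and 11.70, 11.51, 11.45 and 11.13 in *Tbr1* KO, against 11.81, 11.85 and 11.53 in controls. All *Tbr1/2* dKO and *Tbr2* cKO arrays were below all controls, and *Tbr1/2* dKO replicate 2 was again the lowest. *Chl1* fell by 0.86 ± 0.19 in *Tbr1/2* dKO (1.81-fold, limma adjusted p = 0.0307). The call was lost without control replicate 1 or 2 or *Tbr1/2* dKO replicate 2 or 3 (log2FC of -0.85 to -0.68, adjusted p of 0.0914 to 0.123), and the log2FC was -0.29 with the cortical neuron mean as a covariate (adjusted p = 0.505), -0.45 with the radial glia mean (adjusted p = 0.35) and -0.92 with the meningeal mean (adjusted p = 0.0655). At an unadjusted p under 0.05, where limma called 0 in the single mutants after adjustment, there were 5 of 24 in *Tbr1/2* dKO (20.8%), 3 in *Tbr2* cKO (12.5%) and 2 in *Tbr1* KO (8.33%), against 12.3%, 10.0% and 6.51% of all genes.

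**Figure D4:**
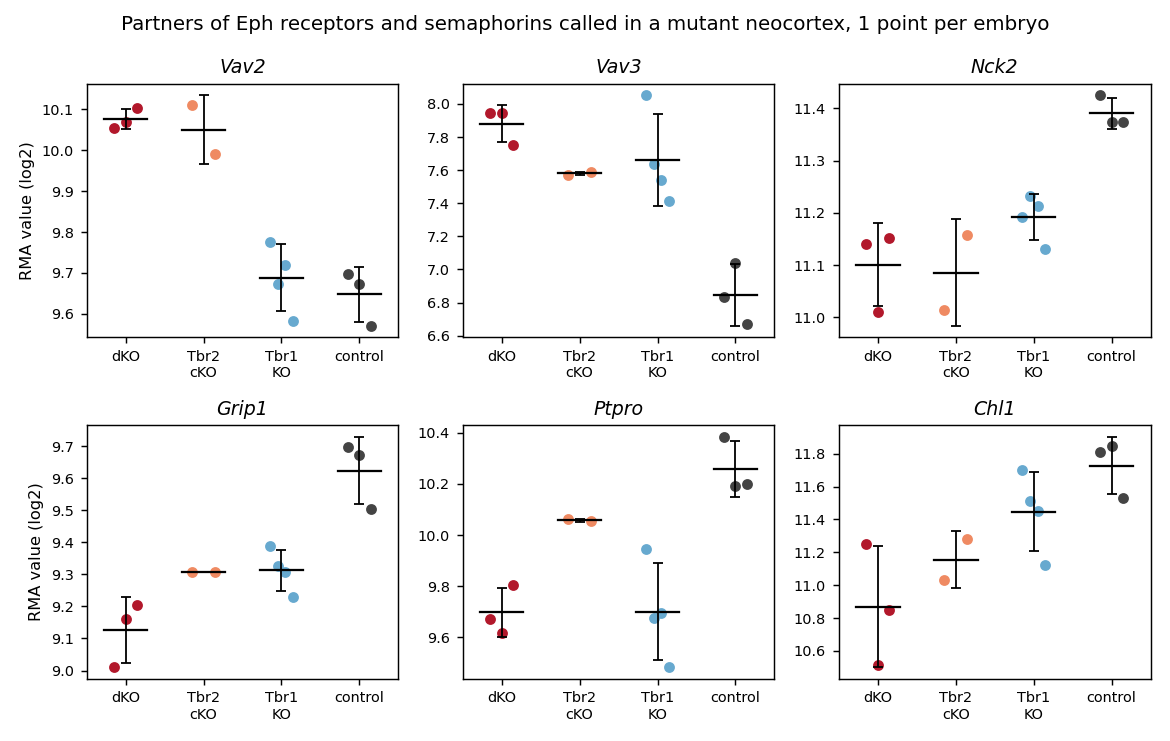
Log2 RMA values (y axis, a separate scale for each gene) of the 6 called partners of Eph receptors and semaphorins, by genotype (x axis: *Tbr1/2* dKO, *Tbr2* cKO, *Tbr1* KO, control), with each point 1 embryo, long bars means and whiskers SD (n = 3, 2, 4 and 3). *Vav2* was high in both genotypes with recombined *Tbr2* (means of 10.08 and 10.05, against 9.65 in controls), and *Ptpro* was low in both genotypes without *Tbr1* (9.70 in each, against 10.26).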

How the data were processed

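Log2 values deposited by the authors, made from the raw array data by RMA with the package oligo, were used as given. The sources used here name no version, annotation release or genome build. Of 23332 probesets, 14996 had 1 gene symbol in the probe table, 1019 several and 7317 none, and only the first were used. For 135 genes with more than 1 probeset, 1 of them a guidance gene (*Epha2*), that of the highest mean level was kept. Probesets shared by *Nrp2* or *Ephb6* with another gene were left out (2), and *Sema3g*, *Sema4c*, *Plxnb3*, *Ephb2* and *Efna3* were not analysed here. Array medians were 8.15 to 8.25, and arrays correlated at 0.988 to 0.997. The number of arrays limits the precision.

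One model for 4 genotypes was fitted to 12 arrays with limma 3.58.1 in R 4.3.3 (lmFit and eBayes, 8 residual and 2.89 prior degrees of freedom, two-sided tests), after the fit had been tested on simulated data. Genes named individually were guidance genes called in any comparison, those with an unadjusted p under 0.05 against controls, and called genes of 2 lists of pathway partners (22 of 27 and 24 of 26 measured). The others were given by their range, and of these *Plxna3*, *Sema3b*, *Sema3d*, *Sema6d*, *Sema7a*, *Epha4*, *Ephb1* and *Efna1* were singled out once their values were known. Guidance genes and lists were chosen with earlier results of these data known. The paper treats each neocortex as an independent replicate, and the labels used here give no litters or pairs, so the model has no block. Embryo sex was not in the main model either. *Eif2s3y*, a Y-linked gene, had the widest spread of all genes (residual SD of 3.61). The mean of Y-linked genes was a covariate in an alternative fit. Deviations from the group means correlated at 0.178, 0.193 and 0.377 in the 3 same-numbered pairs of *Tbr1/2* dKO and *Tbr1* KO. Pairs of unlike number reached 0.215 (*Tbr1/2* dKO replicate 1 with *Tbr1* KO replicate 2) and 0.213 (replicate 3 with replicate 4). The numbers therefore do not establish a pairing, and the block was an alternative only. Promoter sequences are from RefSeq (GRCm38.p6). Plots were drawn with matplotlib 3.10.9 in Python 3.11.15. Other summaries, filters, normalizations, priors, weights, blocks, covariates and left-out arrays were tried. No column of the deposited table was left unused (0).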

Additional observations from a re-analysis of the deposited data

Results flagged for a closer look

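In the *Tbr1* KO group of 4 arrays, replicate 1 stood apart from the other 3 for *Epha6* (7.86, against 7.24, 7.23 and 7.28) and *Efna1* (7.93, against 8.16, 8.13 and 8.16). The gap to the nearest array was 0.924 and 0.842 of the range of the group, above Dixon's 95% critical value for 4 samples. Chance flags about 1 in 20 groups, and 46 guidance genes and 6 pathway genes were examined.

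A direct test of 2 mutants against each other found different changes for the following genes. *Tbr1/2* dKO minus *Tbr1* KO was -1.67 for *Plxna4*, -1.12 for *Sema3c*, -0.57 for *Epha3*, -0.52 for *Epha7*, 0.33 for *Plxnb2* and 0.39 for *Vav2*. *Tbr1/2* dKO minus *Tbr2* cKO was -1.17 for *Plxna4* and -0.76 for *Plxnd1*. *Tbr2* cKO minus *Tbr1* KO was 0.67 for *Plxnd1* and 0.36 for *Vav2*. All are on the log2 scale, with a limma adjusted p under 0.05 over all genes.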

How the results depend on the processing

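Of 1615 values of 65 named results recomputed under alternatives, 1404 kept their direction and side of the threshold, 190 lost a call, 21 gained one and 0 changed sign. The 65 include results not called in the main analysis, which cannot lose a call, so 1615 is not the base for the 190. The cause of these shifts was not tested, other than that fits of the 2 groups alone and with an array left out rest on fewer arrays. With 2 *Tbr2* cKO arrays, leaving out 1 leaves a lone array that is assumed to vary like the other groups.

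The 9 guidance genes called in *Tbr1/2* dKO became 4 with the meningeal mean as a covariate or with only the 2 groups compared, 20 without adjustment, and 4 to 9 with 1 array left out. The 2 in *Tbr2* cKO became 1 with the replicate number as a block, the meningeal covariate, both arrays of high meningeal genes left out or 2 groups, 8 without adjustment, and 1 to 2 with 1 array left out. The 3 in *Tbr1* KO became 1 with the replicate block or 2 groups, 9 without adjustment, and 1 to 3 with 1 array left out. They became 4 above the median level, with a trended robust prior or with array weights. Between *Tbr1/2* dKO and *Tbr1* KO, 5 became 3 with the replicate block, both meningeal arrays out, 2 groups or the cortical neuron mean as a covariate, 15 without adjustment, and 3 to 5 with 1 array left out. Between *Tbr1/2* dKO and *Tbr2* cKO, 2 became 0 with the replicate block, both meningeal arrays out or 2 groups, 1 with the meningeal, cortical neuron or radial glia covariate, 8 without adjustment, and 1 to 2 with 1 array left out. Between *Tbr2* cKO and *Tbr1* KO, 1 became 4 above the median level, with array weights or at an adjusted p under 0.10, 3 with a trended robust prior or the radial glia covariate, 2 with arrays centred or the cortical neuron covariate, 0 with the replicate block, the meningeal covariate or both meningeal arrays out, 8 without adjustment, and 0 to 1 with 1 array left out. The 0 departures became 3 without adjustment, and stayed at 0 with 1 array left out. The 6 that differed among genotypes became 11 with array weights, 16 without adjustment, and 4 to 8 with 1 array left out. The cortical neuron and radial glia covariates were added after the data had been seen.

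Over all genes, the counts called ranged from 226 to 603 in *Tbr1/2* dKO (462 in the main analysis), 27 to 250 in *Tbr2* cKO (97) and 49 to 186 in *Tbr1* KO (92) over these fits. Between mutants they were 60 to 237 for *Tbr1/2* dKO and *Tbr1* KO (185), 0 to 20 for *Tbr1/2* dKO and *Tbr2* cKO (16) and 25 to 256 for *Tbr2* cKO and *Tbr1* KO (87). For departures they were 0 to 10 (4), and among genotypes 203 to 562 (337).

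Between *Tbr1/2* dKO and *Tbr1* KO the block ended the calls of *Plxnb2* (adjusted p = 0.0593), *Sema3c* (0.113) and *Vav2* (0.0593) and no other. In this and every other comparison the arrays share only a number. In the other comparisons 3 of the 12 remaining pairs deviated together with r over 0.1, and of all 12 arrays 5 correlated best with their own number. There the block left no call for *Epha6* (0.0658), *Plxnb2* (0.0609), *Sema3c* (0.0539) and *Nck2* (0.0823) in *Tbr1/2* dKO, *Epha3* (0.0559) and *Vav2* (0.0839) in *Tbr2* cKO, *Plxna4* (0.0741), *Efna5* (0.0806) and *Ptpro* (0.0775) in *Tbr1* KO, *Plxna4* (0.0524) and *Plxnd1* (0.172) between *Tbr1/2* dKO and *Tbr2* cKO, and *Plxnd1* (0.0895) and *Vav2* (0.175) between *Tbr2* cKO and *Tbr1* KO. The other named calls held.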
